A study of Drosophila melanogaster with 12 samples.

Results

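Non-LTR retrotransposons are mobile elements that spread through an RNA copy, which a reverse transcriptase turns back into DNA at a new place in the genome. In Drosophila, jockey, Doc, F, G, I, BS and Juan are scattered over the chromosomes, R1 and R2 insert into the genes of ribosomal RNA, and HeT-A is added head to tail to chromosome ends and helps to keep telomeres long. Piwi-interacting RNAs (piRNAs) silence them mainly in the germ line, while small interfering RNAs (siRNAs) and heterochromatin also act in the body. The insertions described here are rows of the raw count table whose name before the braces is on a list of non-LTR names. The choice was by name and not by any value. The insertions numbered 993 under 32 element names, among 5876 rows of transposable elements and 23793 rows in all. Some non-LTR names are not on the list, among them BS3 with 29 rows, Doc3 with 18 rows and TART-A with 10 rows.

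The libraries were made from male fly heads at 3 days of age, 50 heads pooled for each, and there were 3 libraries per group. All groups carried the nSyb driver, which is active in neurons, and a hairpin construct for RNA interference (IR in the labels). The hairpin was directed at dYEATS2 (dYEATS2-IR), at dENL/AF9 (dENL/AF9-IR), at Luciferase (NTC IR-2) or at mCherry (NTC IR-1), and the last pair are the non-targeting controls. The driver acts in neurons, photoreceptors included, and the heads also contained glia, blood cells and fat body, so fewer cells of a type and less RNA per cell cannot be told apart. Only RNA was counted, and whether the groups carried the same insertions in the same number of copies was not tested. The names of the groups are those of the count table. The deposited normalized table puts each set of 3 libraries under the name of another group. Neither target was called lower where its hairpin was expressed: D12, the gene of dYEATS2, averaged 8.82 CPM in dYEATS2-IR and 9.04 CPM in NTC IR-1, a log2 ratio of -0.03 (FDR 0.919), and ear, the gene of dENL/AF9, averaged 40.6 CPM in dENL/AF9-IR and 41.97 CPM in NTC IR-2, a log2 ratio of -0.05 (FDR 1.00). Every direction below therefore holds for libraries labelled so in the count table.

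CPM here is the count scaled by the library's TMM-normalized total. Library totals were 30298251 to 54132559 counts, of which 11074 to 25511 fell on the 993 insertions. Genes outside the retrotransposons also set groups apart. The eye colour gene w averaged 3745 CPM in dYEATS2-IR, 30.98 CPM in dENL/AF9-IR, 33.6 CPM in NTC IR-2 and 42.4 CPM in NTC IR-1. The summed level of 7 fat body markers was 338 to 475.8 CPM in dYEATS2-IR, 390.5 to 1031 CPM in dENL/AF9-IR, 310.3 to 462.2 CPM in NTC IR-2 and 2042 to 2759 CPM in NTC IR-1. That of 6 neuronal markers was 4104 to 5023 CPM in dYEATS2-IR, 5694 to 6663 CPM in dENL/AF9-IR, 5474 to 6976 CPM in NTC IR-2 and 3468 to 4307 CPM in NTC IR-1. The 6 germ line markers summed to at most 15.9 CPM in any library, and bam, a germ cell gene, had no count in any group. No batch is labelled, but titles of the NTC IR-2 and dENL/AF9-IR libraries carry the word young, which the others lack.

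Most insertions gave few reads. Of the 993, 269 had no count in any library, 488 had a total of at least 10 counts and 301 had a count in all 12 libraries. The filter on low counts left 241 (24.3%) for testing, with 95.4% of the counts. How reads that match several copies were handled and whether strand was used are not given in the sources used here, so the split of reads between near-identical copies is uncertain, and counts were also summed by name. Such sums do not settle a split between overlapping insertions of different names. By name, Doc held 26.3% of the counts, HeT-A 20.3%, jockey 12.2%, Cr1a 11.8%, F 7.45%, Juan 4.57%, G2 4.53% and I 2.94%. The 10 insertions with the most counts held 34.0%.

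All 993 were placed on the annotation BDGP6.54. Their length was 20 to 66001 bases with a median of 1074, and 184 overlapped another annotated insertion. By place, 565 were intergenic with 53.4% of the counts, 382 lay within introns with 37.9% and 46 overlapped an exon with 8.69%. In introns, 152 insertions on the strand of the host gene had a median level of 0.0665 CPM per kilobase, and 220 on the opposite strand had 0.0156 CPM per kilobase. Of these, 36.2% on the same strand and 21.8% on the opposite strand passed the filter. The small chromosome 4, with 53 insertions, held 24.9% of the counts, and arm 2R, with 266 insertions, held 14.4%.

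The insertion with the highest mean CPM was Doc{}CHKov1[Doc1420] (3R:25324412-25328927), a Doc copy within CHKov1 that shares 5 bases with an exon. It had 29.4, 25.5 and 22.5 CPM in dYEATS2-IR, 34.1, 34.4 and 30.8 CPM in dENL/AF9-IR, 23.6, 25.2 and 36.6 CPM in NTC IR-2 and 20.8, 21.6 and 35.4 CPM in NTC IR-1. The dYEATS2-IR and dENL/AF9-IR libraries each overlapped both controls, and its log2 ratio in dYEATS2-IR relative to NTC IR-1 was -0.01 (SE 0.216, FDR 0.990). A log2 ratio is the fitted log2 fold change with its standard error, FDR is the p-value of edgeR's quasi-likelihood test adjusted by Benjamini and Hochberg over all 12661 rows tested, and a row was called at an FDR below 0.05. The next 9 were G2{}1640, HeT-A{}5504, HeT-A{}6268, Cr1a{}1607, F{}1572, Cr1a{}1621, HeT-A{}6262, HeT-A{}6278 and jockey2{}pho[1682]. Per length over the 12 libraries, Cr1a{}1621 had 8.48 CPM per kilobase, HeT-A{}5504 had 6.92 and Doc{}CHKov1[Doc1420] had 6.27. Cr1a{}1607 lies in nAChRalpha4 (a subunit of nicotinic acetylcholine receptors), F{}1572 in Cadps (which acts in the release of neuropeptides), Cr1a{}1621 in dpr7 (a cell surface immunoglobulin protein) and jockey2{}pho[1682] in pho (a DNA-binding Polycomb group protein).

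Replicates of the tested insertions spread more than those of all tested rows, with count levels not matched. The median coefficient of variation within a group was 27.1% in dYEATS2-IR, 19.1% in dENL/AF9-IR, 24.5% in NTC IR-2 and 24.2% in NTC IR-1 for the 241 insertions. Over all tested rows it was 13.1% in dYEATS2-IR, 11.9% in dENL/AF9-IR, 17.5% in NTC IR-2 and 14.9% in NTC IR-1. Summed over the 993 insertions, the level was 324, 392 and 334 CPM in dYEATS2-IR, 481, 469 and 415 CPM in dENL/AF9-IR, 395, 464 and 436 CPM in NTC IR-2 and 416, 416 and 464 CPM in NTC IR-1. The dYEATS2-IR sums lay below the NTC IR-1 sums. Without HeT-A they overlapped, with 279, 329.9 and 299.9 CPM in dYEATS2-IR and 319, 312 and 383 CPM in NTC IR-1.

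**Figure D1:**
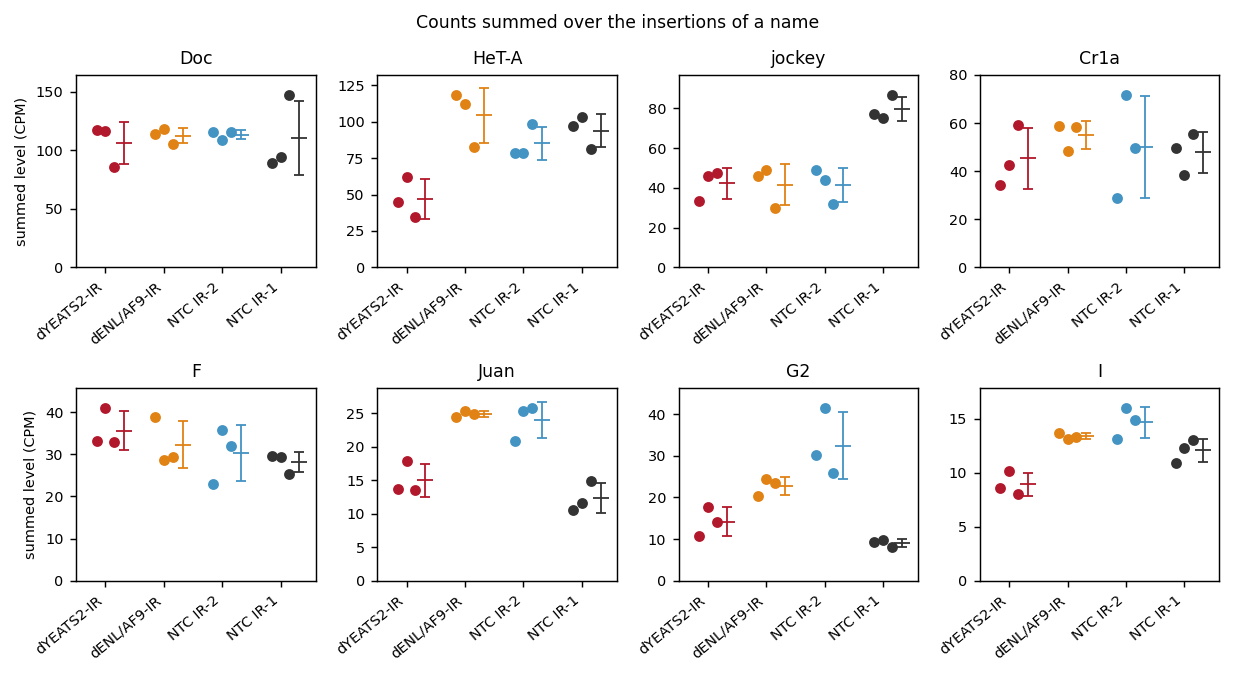
Level in CPM summed over the insertions of a name, for 8 names. Points are libraries, with the mean and SD of the 3 libraries of each group beside them. HeT-A averaged 46.9 CPM in dYEATS2-IR and 85.1 CPM or more in each other group, and jockey averaged 79.7 CPM in NTC IR-1 and 41.6 to 42.2 CPM in the others.

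Between dYEATS2-IR and NTC IR-1, copies of telomeric HeT-A were lower, with 10 of 19 tested insertions called, and so were 4 jockey insertions, while 2 G2 insertions and 1 F insertion were higher. This comparison asks how the insertions differ with a hairpin against dYEATS2, whose YEATS domain reads acylated histones. In all, 17 of the 241 tested insertions were called, or 7.05%, and over all rows 4.77% were. Higher were 3 insertions (2.42% of all rows were called higher) and lower were 14 (2.35% of all rows). For comparison, 14.8% of 775 tested insertions of transposable elements outside the list, INE-1 left aside, were called, 3.61% higher and 11.2% lower. Of 178 tested insertions of INE-1, a short and abundant element, edgeR's test called 0, with 16 at an unadjusted p below 0.05. The median log2 ratio was -0.20 for the 241 insertions, -0.34 for the 775 other insertions, 0.13 for INE-1 and -0.02 for all rows.

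HeT-A RNA serves both as the template for adding to telomeres and as the message for a Gag protein, and the element encodes no reverse transcriptase. Of its 27 insertions, 15 lie at the end of chromosome 4 (positions 1272114 to 1320140) and 9 at the end of X (positions 103614 to 122812). Summed over all copies, HeT-A had 44.5, 61.8 and 34.2 CPM in dYEATS2-IR, 118, 112 and 82.7 CPM in dENL/AF9-IR, 78.6, 78.7 and 98.1 CPM in NTC IR-2 and 97.02, 104 and 81.2 CPM in NTC IR-1. Each dYEATS2-IR library lay below all 9 others. The log2 ratio of the sum in dYEATS2-IR was -1.003 (SE 0.207, FDR 0.0276) relative to NTC IR-1 and -0.86 (SE 0.206, FDR 0.0278) relative to NTC IR-2. Of 26 non-LTR sums tested against NTC IR-1, 2 were called, HeT-A and jockey, both lower. Over the 11581 rows of that fit 3.2% were called, 1.77% higher and 1.43% lower. The HeT-A call was lost at FDR 0.123 or 0.0722 without replicate 1 or 3 of dYEATS2-IR, at FDR 0.102 or 0.123 without replicate 1 or 2 of NTC IR-1, and at FDR 0.06 when only these 6 libraries were fitted. At the chromosome 4 end the sum averaged 26.7 ± 6.68 CPM in dYEATS2-IR, 67.3 ± 11.4 CPM in dENL/AF9-IR, 54.4 ± 7.80 CPM in NTC IR-2 and 63.2 ± 12.9 CPM in NTC IR-1 (SD, n = 3 each). At the X end it averaged 18.8 ± 6.88 CPM in dYEATS2-IR, 33.8 ± 7.59 CPM in dENL/AF9-IR, 26.4 ± 2.42 CPM in NTC IR-2 and 27.2 ± 1.83 CPM in NTC IR-1 (SD, n = 3 each).

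Not all neighbouring HeT-A copies at the X end were called. HeT-A{}4795 (X:109756-114008) had 32, 29 and 32 counts in dYEATS2-IR, 364, 283 and 276 counts in dENL/AF9-IR, 228, 292 and 447 counts in NTC IR-2 and 403, 522 and 405 counts in NTC IR-1. The dYEATS2-IR libraries lay far below all others, with a log2 ratio of -3.46 (SE 0.165, FDR 5.88e-07) relative to NTC IR-1 and -3.22 (SE 0.164, FDR 1.24e-06) relative to NTC IR-2. Next to it on the side of the chromosome tip, HeT-A{}6256 (X:107843-109755) had 23, 29 and 17 counts in dYEATS2-IR, 213, 223 and 107 counts in dENL/AF9-IR, 37, 41 and 128 counts in NTC IR-2 and 138, 147 and 145 counts in NTC IR-1, and its log2 ratio was -2.26 (SE 0.362, FDR 0.00666). On the other side, HeT-A{}5504 (X:114047-116407) had 15.2, 24.1 and 10.8 CPM in dYEATS2-IR, 27.9, 25.7 and 15.1 CPM in dENL/AF9-IR, 13.8, 14.1 and 16.9 CPM in NTC IR-2 and 9.29, 8.93 and 14.3 CPM in NTC IR-1. Here dYEATS2-IR overlapped each other group, and the log2 ratio of 0.62 (SE 0.304, FDR 0.263) was not called. The other 4 tested insertions at this end were all called lower. The outermost of them, HeT-A{}6255 (X:103614-107842), had 12, 7 and 6 counts in dYEATS2-IR, 15, 20 and 28 counts in dENL/AF9-IR, 18, 13 and 20 counts in NTC IR-2 and 71, 74 and 111 counts in NTC IR-1, which sets NTC IR-1 above the other 3 groups, and a log2 ratio of -2.96 (SE 0.418, FDR 0.00279).

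At the chromosome 4 end, 11 of 13 tested HeT-A insertions had a log2 ratio below 0, and 5 were called lower. The outermost, HeT-A{}6262 (4:1314342-1320140), had 112, 116 and 44 counts in dYEATS2-IR, 831, 770 and 428 counts in dENL/AF9-IR, 160, 216 and 499 counts in NTC IR-2 and 439, 612 and 477 counts in NTC IR-1, and a log2 ratio of -2.10 (SE 0.362, FDR 0.00940). HeT-A{}6270 (4:1295016-1296989) had 2.31, 3.12 and 1.82 CPM in dYEATS2-IR, 5.43, 6.01 and 3.20 CPM in dENL/AF9-IR, 3.40, 2.59 and 4.01 CPM in NTC IR-2 and 16.4, 16.3 and 9.36 CPM in NTC IR-1. NTC IR-1 stood above the other 3 groups, and the log2 ratio to NTC IR-1 was -2.53 (SE 0.317, FDR 0.00112) for dYEATS2-IR and -2.06 (SE 0.310, FDR 0.00248) for NTC IR-2. HeT-A{}6278 (4:1278430-1281474) had a log2 ratio of -1.84 (SE 0.293, FDR 0.00633). HeT-A{}6269 (4:1296990-1301833) had 1, 2 and 5 counts in dYEATS2-IR, 13, 18 and 23 counts in dENL/AF9-IR, 28, 7 and 11 counts in NTC IR-2 and 15, 73 and 36 counts in NTC IR-1. Its log2 ratio of -3.49 (SE 0.829, FDR 0.0379) lost the call in 5 of 6 fits without a library, at FDR 0.0564 to 0.16, and kept it only without replicate 3 of NTC IR-1. The last 3 called copies were HeT-A{}6276 at this end, with -1.27 (SE 0.241, FDR 0.0149), HeT-A{}4800 at the X end, with -2.01 (SE 0.442, FDR 0.0297), and HeT-A{}6532 on arm 2R, with -1.19 (SE 0.253, FDR 0.0256). The call of HeT-A{}6276 was lost, at FDR 0.0524 to 0.064, without replicate 2 or 3 of dYEATS2-IR or replicate 2 of NTC IR-1. Those of HeT-A{}4800 (FDR 0.0708 to 0.121) and HeT-A{}6532 (FDR 0.0643 to 0.112) were lost in 5 of 6 fits and kept only without replicate 3 of NTC IR-1.

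When dYEATS2-IR was set against NTC IR-2 instead, 18 of the 19 tested HeT-A insertions had a log2 ratio below 0 and 8 were called lower. Of the 241 insertions, 17 were called, 1 higher (3.85% of all rows) and 16 lower (5.32% of all rows), and 9.17% of all rows in either direction. HeT-A{}4795, HeT-A{}6256, HeT-A{}6262, HeT-A{}6276 and HeT-A{}6532 were called lower against both controls, in comparisons that share the dYEATS2-IR libraries. Outside the choice by name, 4 more telomeric names were looked up, and others were not searched for. HeT-Tag, with 23 rows, averaged 1.03 ± 0.110 CPM in dYEATS2-IR, 1.46 ± 0.200 CPM in dENL/AF9-IR, 2.00 ± 0.370 CPM in NTC IR-2 and 1.62 ± 0.0495 CPM in NTC IR-1. TART-A, with 10 rows, averaged 5.28 ± 1.22 CPM in dYEATS2-IR, 7.54 ± 2.55 CPM in dENL/AF9-IR, 10.9 ± 5.83 CPM in NTC IR-2 and 10.997 ± 4.56 CPM in NTC IR-1. TART-B, with 3 rows, averaged 5.51 ± 0.410 CPM in dYEATS2-IR, 7.58 ± 1.08 CPM in dENL/AF9-IR, 9.73 ± 1.34 CPM in NTC IR-2 and 7.32 ± 0.299 CPM in NTC IR-1. TART-C, with 1 row, averaged 1.06 ± 0.218 CPM in dYEATS2-IR, 3.65 ± 0.571 CPM in dENL/AF9-IR, 2.79 ± 0.819 CPM in NTC IR-2 and 2.45 ± 0.182 CPM in NTC IR-1 (SD, n = 3 each, for all 4 names). The mean of each name was lowest in dYEATS2-IR, and these differences were not tested. Of 6 genes of telomere capping, all tested, edgeR's test called 0 in dYEATS2-IR relative to NTC IR-1 (4.77% of all rows were called), and their median log2 ratio was -0.22. Photoreceptor markers moved with this comparison, 4 of 8 being called higher (ninaC, trpl, inaD and norpA), where 2.42% of all rows were. Their summed level was 48630 to 55240 CPM in dYEATS2-IR, 37210 to 55350 CPM in dENL/AF9-IR, 33490 to 45780 CPM in NTC IR-2 and 26650 to 40590 CPM in NTC IR-1. The part of photoreceptor RNA in the HeT-A values, and that of w and of the fat body markers, was not tested.

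**Figure D2:**
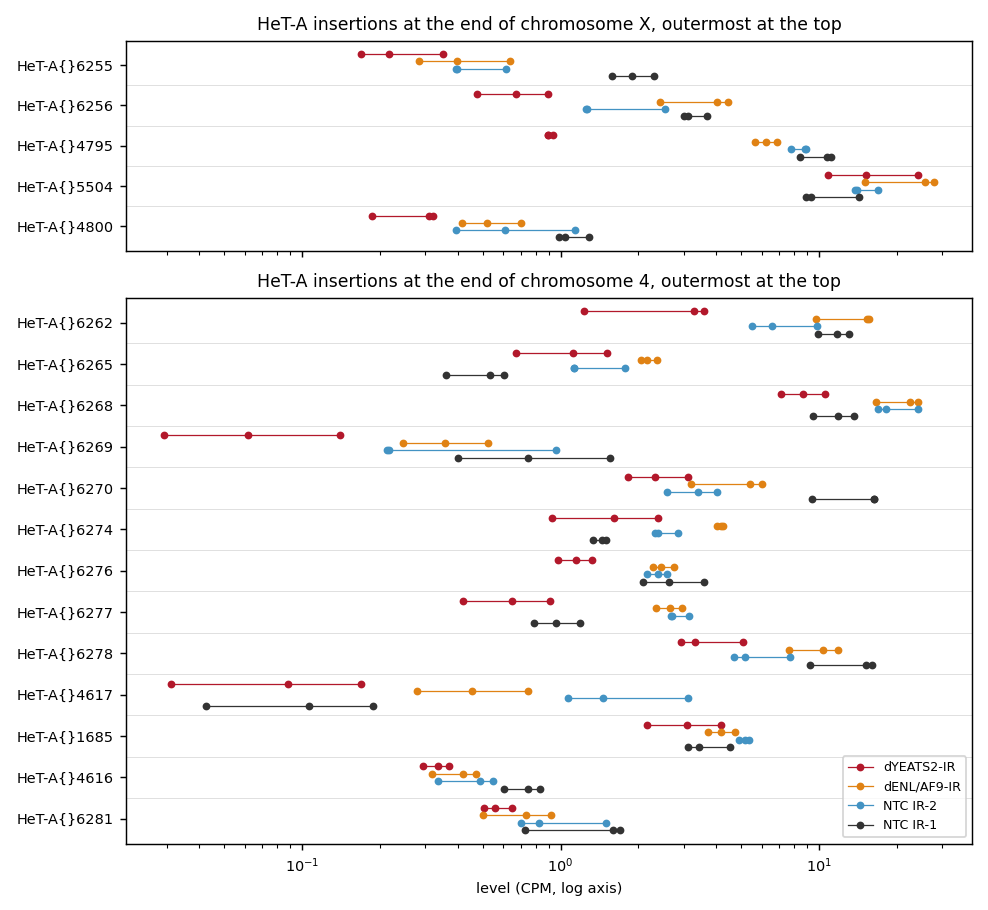
Level of 18 tested HeT-A insertions at the ends of X and chromosome 4, in CPM on a log axis, with the outermost insertion of each end at the top. Points are libraries, coloured by group. HeT-A{}4795 lies lowest in dYEATS2-IR, at a mean of 0.911 CPM against 10.1 CPM in NTC IR-1, and HeT-A{}5504 averaged 16.7 CPM in dYEATS2-IR and 10.8 CPM in NTC IR-1.

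The jockey sum was highest in NTC IR-1, and 4 of 41 tested jockey insertions were called lower in dYEATS2-IR. Summed, jockey had 33.4, 45.95 and 47.3 CPM in dYEATS2-IR, 46.04, 48.9 and 29.7 CPM in dENL/AF9-IR, 48.9, 43.9 and 31.99 CPM in NTC IR-2 and 77.2, 75.3 and 86.6 CPM in NTC IR-1. The NTC IR-1 libraries lay above all others, which overlapped. The log2 ratio of the sum in dYEATS2-IR was -0.92 (SE 0.207, FDR 0.0394) relative to NTC IR-1, a call lost in all 6 fits without a library (FDR 0.0528 to 0.156). Relative to NTC IR-2 it was 0.02 (SE 0.206, FDR 0.958). Of these 41, 40 had a log2 ratio below 0 relative to NTC IR-1, and 4 were called lower, where 2.35% of all rows were. These were jockey{}1509 (4:414008-414630), with 13, 6 and 3 counts in dYEATS2-IR and 79, 54 and 99 counts in NTC IR-1, jockey{}986, and jockey{}1451 and jockey{}981, named after their values were seen. Each of these 4 calls was lost in all 6 fits without a library, at FDR 0.0512 to 0.145 for jockey{}1509, 0.0571 to 0.178 for jockey{}986, 0.0517 to 0.15 for jockey{}1451 and 0.0654 to 0.173 for jockey{}981. Of the 7 fat body markers, 2 were called lower in dYEATS2-IR relative to NTC IR-1, the yolk proteins Yp1 and Yp2. The part of fat body RNA in the jockey values was not tested.

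The insertions called higher in dYEATS2-IR had few reads. F{}842 (2R:17485978-17490671) lies in an intron of NT5E-2 on the same strand and shares 243 bases with an exon of CG43110 on the opposite one. It had 29, 18 and 23 counts in dYEATS2-IR, 16, 6 and 5 counts in dENL/AF9-IR, 2, 4 and 6 counts in NTC IR-2 and 2, 3 and 4 counts in NTC IR-1. The dYEATS2-IR libraries lay above all others. Its log2 ratio in dYEATS2-IR was 3.29 (SE 0.554, FDR 0.00850) relative to NTC IR-1 and 2.67 (SE 0.537, FDR 0.0128) relative to NTC IR-2, and the first call was lost, at FDR 0.0539 to 0.0566, without replicate 1 of dYEATS2-IR or replicate 1 or 2 of NTC IR-1. The F sum had 33.2, 40.9 and 32.9 CPM in dYEATS2-IR and 29.5, 29.4 and 25.3 CPM in NTC IR-1, and its log2 ratio of 0.34 (SE 0.172, FDR 0.286) was not called. G2{}CG3894[iso-1] (2R:24763666-24765583), in an intron of CG3894, had 6, 13 and 15 counts in dYEATS2-IR, 15, 16 and 8 counts in dENL/AF9-IR, 5, 6 and 8 counts in NTC IR-2 and 0, 0 and 0 counts in NTC IR-1. With NTC IR-1 set to a floor of 3 counts per library, it was at least 4.85-fold higher in dYEATS2-IR (FDR 0.00507) and at least 2.49-fold higher in NTC IR-2 (FDR 0.00566). G2{}340 (2L:11315294-11317659) had 18, 18 and 37 counts in dYEATS2-IR, 56, 69 and 39 counts in dENL/AF9-IR, 3, 3 and 21 counts in NTC IR-2 and 2, 0 and 0 counts in NTC IR-1. The ratio of its pooled level in dYEATS2-IR to that in NTC IR-1 was 47.4 (exact 95% interval 12.7 to 398.9, for counting error only), at FDR 0.0107, and at FDR 0.0599 without replicate 2 of NTC IR-1.

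Among other names, the I element, known for the sterility that follows certain crosses, had a sum of 8.57, 10.1 and 8.04 CPM in dYEATS2-IR, 13.7, 13.1 and 13.3 CPM in dENL/AF9-IR, 13.1, 15.9 and 14.9 CPM in NTC IR-2 and 10.9, 12.2 and 13.04 CPM in NTC IR-1. The dYEATS2-IR libraries lay below all others. The log2 ratio in dYEATS2-IR was -0.44 (SE 0.124, FDR 0.0802) relative to NTC IR-1, not called, and -0.72 (SE 0.125, FDR 0.00892) relative to NTC IR-2. Doc summed to 106 ± 18.01 CPM in dYEATS2-IR and 110.3 ± 31.8 CPM in NTC IR-1 (SD, n = 3 each), a log2 ratio of -0.05 (SE 0.178, FDR 0.903), and edgeR's test called 0 of its 69 tested insertions, whose log2 ratios ran from -1.35 to 0.26. The R1A1 sum had a log2 ratio of 0.25 (SE 0.442, FDR 0.798) and the R2 sum one of 0.51 (SE 0.537, FDR 0.637).

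**Figure D3:**
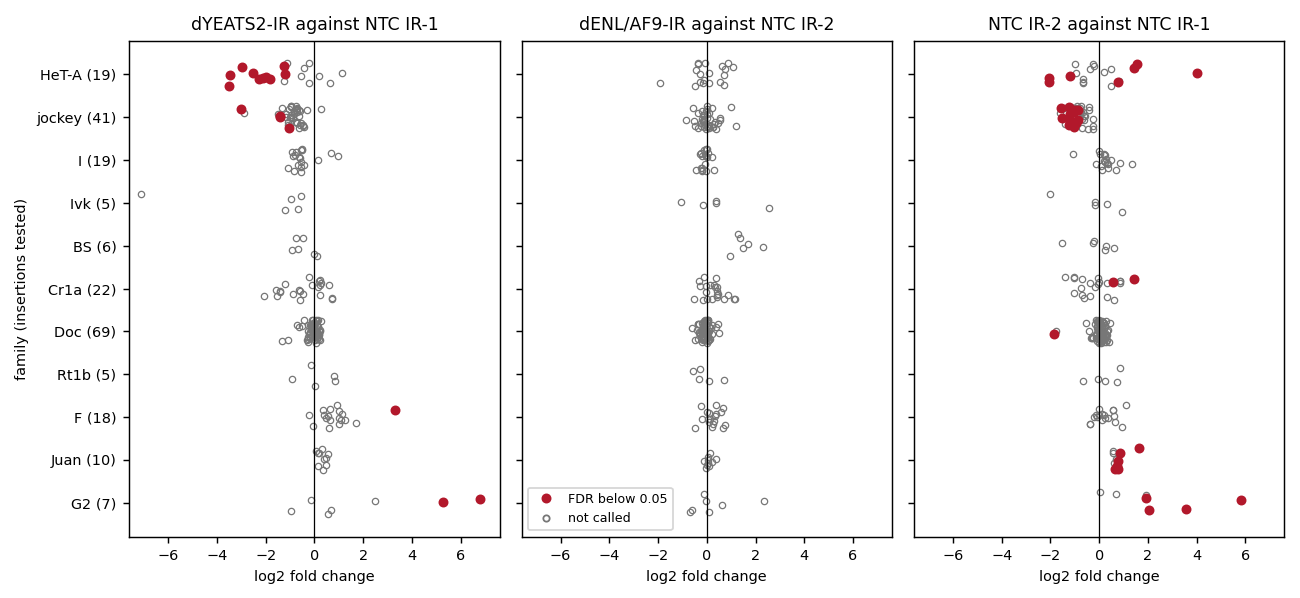
Log2 ratio of each tested insertion in 3 comparisons, for the 11 names with at least 5 tested insertions. Each point is an insertion, and red points were called at an FDR below 0.05. Called HeT-A insertions lie below 0 for dYEATS2-IR and on both sides of 0 between the controls, and 0 points are red for dENL/AF9-IR. Insertions without a count in a group have fitted values that are not bounds.

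Between dENL/AF9-IR and NTC IR-2, no insertion was called. This comparison asks the same of a hairpin against dENL/AF9, a YEATS domain protein of transcription elongation complexes. By edgeR's test 0 of the 241 insertions and 0% of all rows passed, 18 insertions had an unadjusted p below 0.05, and DESeq2's Wald test also called 0 insertions. Of the 26 family sums 0 were called by edgeR's test and 1, BS, by DESeq2's. The lowest unadjusted p-values belonged to BS{}1014, Cr1a{}6093 and R2{}RR48361. BS{}1014 (3L:16523336-16528459), in an intron of CG43373 on the opposite strand, had 4, 3 and 4 counts in dYEATS2-IR, 63, 63 and 43 counts in dENL/AF9-IR, 2, 4 and 23 counts in NTC IR-2 and 6, 6 and 8 counts in NTC IR-1. The dENL/AF9-IR libraries lay above all others, with a log2 ratio of 2.30 (SE 0.540, FDR 0.476) relative to NTC IR-2, which became 3.53 at FDR 0.026 without replicate 3 of NTC IR-2. All 6 tested BS insertions had a log2 ratio above 0, from 0.97 to 2.30. Their sum had 6.31, 7.14 and 5.28 CPM in dENL/AF9-IR and 1.85, 1.79 and 3.12 CPM in NTC IR-2, a log2 ratio of 1.46 (SE 0.314, FDR 0.355), and an adjusted p of 0.0143 by DESeq2's Wald test. Relative to NTC IR-1, the log2 ratio of BS{}1014 was 2.89 (SE 0.559, FDR 0.00902) and that of the BS sum 1.18 (SE 0.310, FDR 0.0273).

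Cr1a{}6093 (4:455789-459194) had 74, 75 and 74 counts in dENL/AF9-IR and 23, 17 and 41 counts in NTC IR-2, and a log2 ratio of 1.10 (SE 0.284, FDR 0.597). R2{}RR48361 (X:23220092-23223699), the only R2 copy, had 78, 86 and 98 counts in dYEATS2-IR, 43, 24 and 57 counts in dENL/AF9-IR, 127, 136 and 113 counts in NTC IR-2 and 88, 121 and 22 counts in NTC IR-1. Its dENL/AF9-IR libraries lay below those of NTC IR-2, at a log2 ratio of -2.05 (SE 0.557, FDR 0.597). The HeT-A sum had a log2 ratio of 0.29 (SE 0.205, FDR 1.00), and the jockey sum one of 0.00 (SE 0.206, FDR 1.00). Set against NTC IR-1, dENL/AF9-IR gave 39 called insertions where 15.6% of all rows were called (8.67% higher and 6.92% lower). Among these, 16 jockey insertions were lower and 7 Juan insertions were higher.

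The controls differed from each other in 39 of the 241 tested insertions, or 16.2%, where 19.5% of all rows were called. In NTC IR-2 relative to NTC IR-1, 16 insertions were higher (10.3% of all rows were called higher) and 23 lower (9.16% of all rows). Of those that were lower, 19 were jockey insertions, and all 41 tested jockey insertions had a log2 ratio below 0. The jockey sum had a log2 ratio of -0.94 (SE 0.207, FDR 0.0110). The largest called falls in jockey were those of jockey{}901 (3L:939838-940886), with 10, 9 and 11 counts in NTC IR-2 and 37, 34 and 37 counts in NTC IR-1 and a log2 ratio of -1.57 (SE 0.389, FDR 0.0181), jockey{}986, with -1.51 (SE 0.363, FDR 0.0159), and jockey{}79, with -1.23 (SE 0.268, FDR 0.0106). The calls of jockey{}901 and jockey{}986 were each lost, at FDR 0.0547 to 0.0812, without replicate 2 or 3 of NTC IR-2 or replicate 1 of NTC IR-1. In the same comparison 6 of 7 fat body markers were called lower and 4 of 6 neuronal markers higher, and their part in the jockey values was not tested.

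G2 and Juan were higher in NTC IR-2. Of the 26 family sums 3 were called, G2 and Juan higher and jockey lower, where 20.2% of all rows of that fit were called, 10.9% higher and 9.39% lower. The G2 sum had 10.7, 17.7 and 14.1 CPM in dYEATS2-IR, 20.3, 24.4 and 23.5 CPM in dENL/AF9-IR, 30.1, 41.4 and 25.8 CPM in NTC IR-2 and 9.28, 9.78 and 7.99 CPM in NTC IR-1, with a log2 ratio of 1.85 (SE 0.207, FDR 0.00106) between the controls. Much of it lay in G2{}1640 (2L:20206183-20208940), with 8.35, 15.04 and 11.3 CPM in dYEATS2-IR, 17.2, 20.4 and 19.8 CPM in dENL/AF9-IR, 27.6, 36.8 and 23.1 CPM in NTC IR-2 and 8.07, 8.25 and 7.03 CPM in NTC IR-1. Its log2 ratio in dYEATS2-IR was 0.57 (SE 0.213, FDR 0.149) relative to NTC IR-1 and -1.33 (SE 0.213, FDR 0.00559) relative to NTC IR-2. G2{}1609 (2L:20151484-20152719) had a log2 ratio of 2.06 (SE 0.464, FDR 0.0124) between the controls, lost at FDR 0.0514 or 0.0574 without replicate 2 of NTC IR-2 or replicate 1 of NTC IR-1. G2{}340 was called between the controls as well, with a pooled ratio of 15.9 (exact 95% interval 4.0 to 138) at FDR 0.0289, lost at FDR 0.0634 to 0.142 without replicate 3 of NTC IR-2 or replicate 2 or 3 of NTC IR-1.

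The Juan sum had 13.6, 17.8 and 13.5 CPM in dYEATS2-IR, 24.4, 25.3 and 24.9 CPM in dENL/AF9-IR, 20.8, 25.4 and 25.7 CPM in NTC IR-2 and 10.5, 11.6 and 14.9 CPM in NTC IR-1, with a log2 ratio of 0.96 (SE 0.154, FDR 0.00325) between the controls. In NTC IR-2, 6 of its 10 tested insertions were called higher, where 10.3% of all rows were. Juan{}1190 (3R:4408473-4412704), in an intron of CG32944 on the same strand, had 2.52, 3.96 and 2.58 CPM in dYEATS2-IR, 7.52, 8.86 and 7.65 CPM in dENL/AF9-IR, 7.24, 8.57 and 8.82 CPM in NTC IR-2 and 2.24, 2.40 and 3.35 CPM in NTC IR-1. The dENL/AF9-IR and NTC IR-2 libraries lay above those of dYEATS2-IR and NTC IR-1. Between the controls its log2 ratio was 1.62 (SE 0.217, FDR 0.00168), and that of CG32944 was -0.04 (FDR 0.822).

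HeT-A copies went both ways between the controls. Of 19 tested, 4 were called higher in NTC IR-2 (10.3% of all rows) and 3 lower (9.16% of all rows), while their sum had a log2 ratio of -0.14 (SE 0.204, FDR 0.658). HeT-A{}4617 (4:1277577-1278360) had 3, 1 and 6 counts in dYEATS2-IR, 24, 14 and 33 counts in dENL/AF9-IR, 91, 35 and 74 counts in NTC IR-2 and 4, 2 and 9 counts in NTC IR-1, and a log2 ratio of 4.02 (SE 0.677, FDR 0.00395) between the controls. HeT-A{}6268 had 0.77 (SE 0.206, FDR 0.0256), a call lost without replicate 2 or 3 of NTC IR-2 or replicate 1 or 3 of NTC IR-1 (FDR 0.0512 to 0.0874), and HeT-A{}6278 had -1.20 (SE 0.286, FDR 0.0154), lost without replicate 2 of NTC IR-2 or replicate 1 or 2 of NTC IR-1 (FDR 0.0547 to 0.0685). Doc{}1041 (3L:18594004-18595923), the only Doc insertion called here, had 24, 25 and 36 counts in NTC IR-2 and 94, 129 and 152 counts in NTC IR-1, and a log2 ratio of -1.87 (SE 0.318, FDR 0.00405). Of the 39 insertions called here, 8 (20.5%) were also among the 17 called in dYEATS2-IR relative to NTC IR-1 (47.1%), and these comparisons share the NTC IR-1 libraries.

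The log2 ratio of dYEATS2-IR to NTC IR-1, less that of dENL/AF9-IR to NTC IR-2, was called different from 0 for 7 insertions, 1 higher (0.434% of all rows) and 6 lower (0.498% of all rows), where 0.932% of all rows were called. The 6 were HeT-A{}4795, with a log2 difference of -3.02 (SE 0.215, FDR 4.26e-05), HeT-A{}6255, HeT-A{}6256, HeT-A{}6262, HeT-A{}6270 and HeT-A{}6278. For HeT-A{}6255 the call was lost in 11 of 12 fits without a library, at FDR 0.0514 to 0.125. That insertion averaged 0.245 ± 0.0949 CPM in dYEATS2-IR, 0.439 ± 0.180 CPM in dENL/AF9-IR, 0.470 ± 0.128 CPM in NTC IR-2 and 1.92 ± 0.368 CPM in NTC IR-1 (SD, n = 3 each), with NTC IR-1 above the other 3 groups. HeT-A{}6255, HeT-A{}6270 and HeT-A{}6278 were also called lower in NTC IR-2 relative to NTC IR-1, a ratio that enters this difference. For the HeT-A sum the log2 difference was -1.30 (SE 0.291, FDR 0.0884), not called. By edgeR's test 0 of the 26 family sums were called, beside 0.656% of the rows of that fit (0.276% higher and 0.38% lower), and DESeq2's Wald test called 4.

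Of 31 genes of piRNA and nuclear silencing, 26 were tested, and in dYEATS2-IR relative to NTC IR-1 1 was called, AGO3, a slicer of the germ line piRNA cycle, where 4.77% of all rows were called. AGO3 averaged 0.481 CPM in dYEATS2-IR, 0.503 CPM in dENL/AF9-IR, 0.482 CPM in NTC IR-2 and 2.09 CPM in NTC IR-1. Its log2 ratio to NTC IR-1 was -2.10 (SE 0.512, FDR 0.0420) for dYEATS2-IR and -2.09 (SE 0.511, FDR 0.0171) for NTC IR-2. The list's median log2 ratio was -0.13 in dYEATS2-IR relative to NTC IR-1, where that of all rows was -0.02. Between the controls, 2 of the 26 were called, where 19.5% of all rows were: AGO3 and nxf2, a partner of Panx in piRNA-guided silencing, which was lower too, with -1.95 (FDR 0.0455). There r2d2, 1 of 4 genes of the siRNA pathway and a partner of Dcr-2, was higher, with 0.35 (FDR 0.0291), as was cav, 1 of the 6 telomere capping genes, with 0.71 (FDR 0.0490).

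Reads from unspliced host RNA can be counted on an insertion in its intron. Of 106 tested intronic insertions, 96 had a single host gene that was tested. Across these 96 pairs, which share libraries and scaling, the log2 ratios of insertion and host had a Pearson r of 0.03 for dYEATS2-IR relative to NTC IR-1, 0.15 for dENL/AF9-IR relative to NTC IR-2 and -0.04 for NTC IR-2 relative to NTC IR-1. Their signs were equal in 54, 57 and 51 pairs of these comparisons in turn. Both strands were pooled. G2{}CG3894[iso-1], with no count in NTC IR-1, entered with fitted values of 6.79 for dYEATS2-IR and 5.84 for NTC IR-2, which are no bounds. The part of host RNA in the insertion counts was not tested. Between the controls, F{}1572 had a log2 ratio of 0.11 (FDR 0.841), and its host Cadps 0.53 (FDR 0.0345). Cr1a{}1621 had 0.57 (FDR 0.0242), lost without replicate 2 or 3 of NTC IR-2 or replicate 1 or 2 of NTC IR-1 (FDR 0.068 to 0.111), and its host dpr7 0.03 (FDR 0.843).

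**Figure D4:**
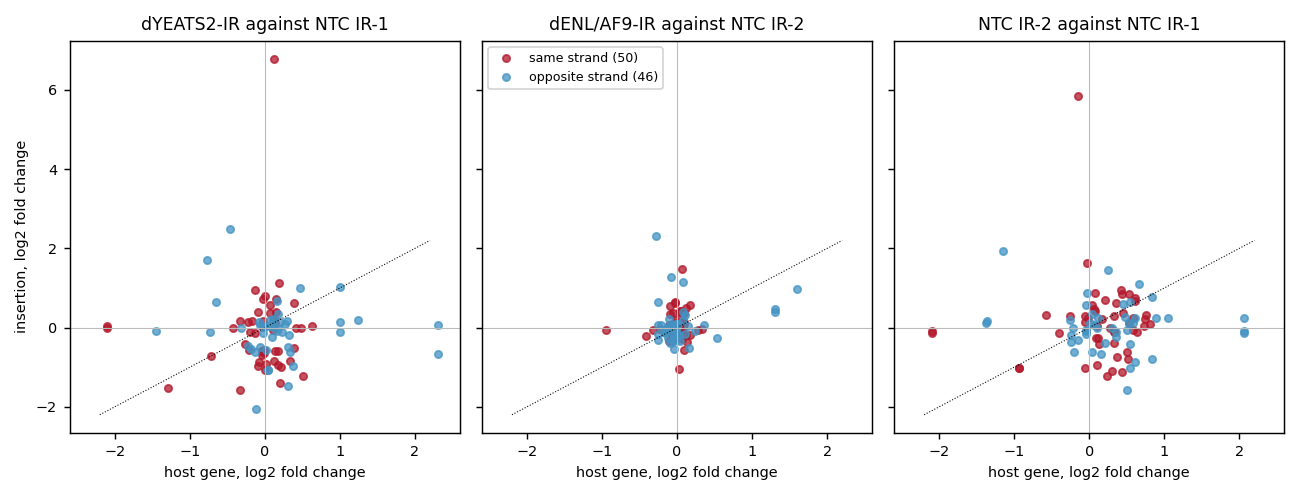
Log2 ratio of 96 tested intronic insertions and of the gene each lies in, in 3 comparisons, coloured by strand relative to the gene. Pearson r was 0.03, 0.15 and -0.04 from left to right.

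Some insertions were well counted in some libraries and nearly absent from others, within a group or between groups. Of 155 insertions with at least 50 counts in a library, 6 had at most 1 count in another. Cr1a{}1995 (2L:22201105-22207089) and Cr1a{}2297 (2L:22200858-22209490) lie in an intron of Ir40a, an ionotropic receptor gene, and around the rows copia{}539 and RR51475, both at 2L:22201408-22206551. Cr1a{}1995 had 0, 0 and 339 counts in dYEATS2-IR, 189, 0 and 258 counts in dENL/AF9-IR, 0, 234 and 0 counts in NTC IR-2 and 247, 1 and 370 counts in NTC IR-1. The LTR element copia{}539 had 1186, 1192 and 381 counts in dYEATS2-IR, 211, 908 and 285 counts in dENL/AF9-IR, 777, 253 and 1221 counts in NTC IR-2 and 283, 1343 and 422 counts in NTC IR-1. In 6 libraries all 4 rows had 183 to 422 counts, and in the other 6 copia{}539 had 777 to 1343 and the other rows 0 or 1. The sum of the 4 rows was 777 to 1533 counts in the first 6 libraries and 777 to 1345 in the other 6. Of all 23793 rows, 3 had at most 1 count in those 6 libraries and at least 5 in the first 6, namely both Cr1a insertions and RR51475, and 0 had the reverse. Neither Cr1a insertion was called in a comparison. Both enter the Cr1a sum, so summing by name does not remove this pattern from it. G6{}6112 (4:435224-435310), 87 bases long, had 0, 94 and 48 counts in dYEATS2-IR, 155, 183 and 109 counts in dENL/AF9-IR, 0, 0 and 133 counts in NTC IR-2 and 53, 71 and 79 counts in NTC IR-1.

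**Figure D5:**
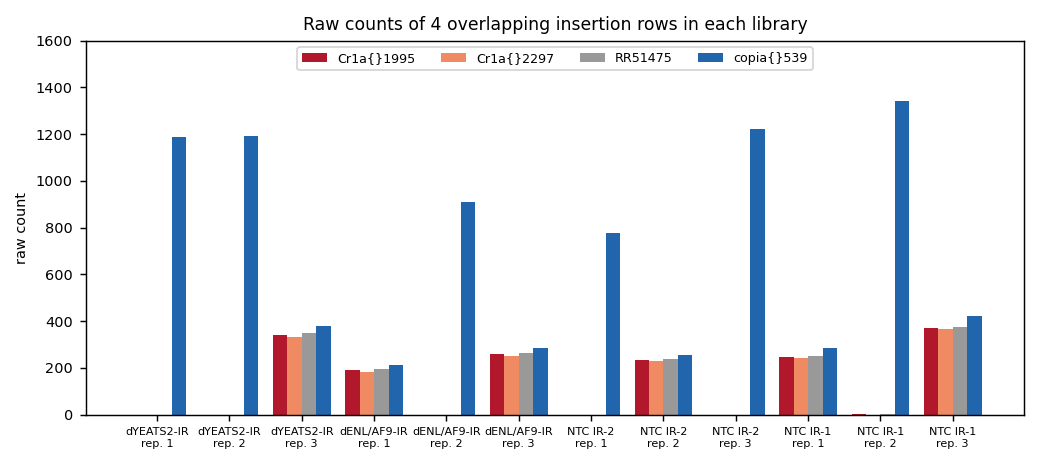
Raw counts of 4 overlapping insertion rows on 2L in each of the 12 libraries. In 6 libraries all 4 rows hold 183 to 422 counts, and in the other 6 copia{}539 holds 777 to 1343 and the others 0 or 1.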

How the data were processed

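Per the submitters' processing notes, FastQC 0.12.0, Trim Galore 0.6.5, HISAT2, SAMtools, UMI-tools, Picard and DESeq2 were used. Per the labels, the RNA was made into strand-specific mRNA libraries. The authors deposited raw counts per gene or insertion, and a normalized table, a signal equal to the raw counts times a constant per column (100% of rows within a relative tolerance of 1e-06), whose group names are exchanged: NTC IR-1 counts stand under dENL/AF9-IR, dYEATS2-IR under NTC IR-2, NTC IR-2 under NTC IR-1 and dENL/AF9-IR under dYEATS2-IR. Its names were used only as an alternative. The labels of 2 NTC IR-2 libraries name columns of another library, so columns were matched by library name. How reads with several matches were counted is not given in the sources used here.

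Counts were fitted in R 4.3.3 with edgeR 4.0.16: filterByExpr (12661 rows), TMM scaling, 12 libraries in 1 quasi-likelihood fit with 8 residual degrees of freedom. SE is the log2 fold change over the square root of F. For family sums, the rows of every transposable element name were added before the fit. CPM uses the TMM-scaled total. The script was tested on simulated data. Nothing says that libraries came from separate crosses, so p-values measure the spread between these libraries. Alternatives were DESeq2 1.42.0, its size factors, other filters, the replicate number as a block, the 6 libraries compared and each library left out. Insertions named were, between dYEATS2-IR or NTC IR-2 and NTC IR-1, the 6 largest rises and falls among called ones without overlap, up to 4 each way (or the 3 smallest p-values) in the other comparisons, and the 10 with the highest mean CPM. The other called insertions of dYEATS2-IR relative to NTC IR-1 and of the difference of ratios were named after their values were seen. The insertions and lists were chosen with earlier results of these data known. Coordinates are those of BDGP6.54 (Ensembl release 115). No sequences are printed.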

Additional observations from a re-analysis of the deposited data

Results flagged for a closer look

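For 7 insertions the log2 ratio of dYEATS2-IR to NTC IR-1 differed from that of dENL/AF9-IR to NTC IR-2 by edgeR's interaction test at an FDR below 0.05. Of these, 6 were HeT-A copies, 3 at each chromosome end. The log2 difference was -3.35 (FDR 0.00821) for HeT-A{}6256, -3.08 (FDR 0.00631) for HeT-A{}6270, -3.02 (FDR 4.26e-05) for HeT-A{}4795, -2.98 (FDR 0.0159) for HeT-A{}6262, -2.86 (FDR 0.043) for HeT-A{}6255 and -2.61 (FDR 0.0118) for HeT-A{}6278. HeT-A{}6262 lost the call at FDR 0.0515 to 0.0617 without replicate 1 or 2 of dENL/AF9-IR, replicate 2 of NTC IR-2, or replicate 1 or 2 of NTC IR-1. HeT-A{}6255 lost it in 11 of 12 fits without a library, at FDR 0.0514 to 0.125, and kept it only without replicate 1 of NTC IR-2 (FDR 0.0399). It lost it at FDR 0.0987 with the replicate number as a block and at FDR 0.0553 with no filter beyond 1 count. HeT-A{}4795, HeT-A{}6256, HeT-A{}6270 and HeT-A{}6278 kept the call in all 12 fits. The log2 ratio of NTC IR-2 to NTC IR-1 enters this difference. That ratio was itself called for HeT-A{}6255 (-2.04, FDR 0.00667), HeT-A{}6270 (-2.06, FDR 0.00248) and HeT-A{}6278 (-1.2, FDR 0.0154) by edgeR's test.

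The other was G2{}CG3894[iso-1], with a fitted log2 difference of 6.18 (FDR 0.043) that is no bound, since the insertion had no count in NTC IR-1. It lost the call in all 12 fits without a library, at FDR 0.0502 to 0.122.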

How the results depend on the processing

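Insertions called in dYEATS2-IR against NTC IR-1, 17 in the report, numbered 10 with the replicate number as a block, 32 by DESeq2's Wald test, 0 under the names of the normalized table and 7 to 16 without a library. Of these 17, 10 lost the call in at least 1 fit without a library. For dENL/AF9-IR relative to NTC IR-2, 0 became 39 with the other control, 17 under the normalized table's names and 0 to 1 without a library, the 1 being without replicate 3 of NTC IR-2. Between the controls, 39 became 22 with the block, 17 under those names, 14 in the 6 libraries compared and 13 to 44 without a library. For the difference of the 2 log2 ratios, 7 became 12 by DESeq2 and 4 to 7 without a library. Family sums called in dYEATS2-IR against NTC IR-1, 2 in the report, numbered 4 with the other control (G2, HeT-A, I and Juan), 1 with the block (HeT-A), 0 under the normalized table's names, 5 by DESeq2 (G2, HeT-A, I, Ivk and jockey), 1 in the 6 libraries (jockey) and 0 to 1 without a library. For dENL/AF9-IR they were 4 with the other control (BS, G2, Juan and jockey), 2 under those names (HeT-A and jockey) and 1 by DESeq2 (BS), and for the difference 4 by DESeq2 (BS, G2, HeT-A and R2) and 0 to 1 without a library. Whether the replicate numbers pair the libraries cannot be told, since libraries with different numbers were not compared. Of 18 same-numbered pairs of libraries, 3 had a correlation of deviations over 0.1.

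Under the normalized table's names, the log2 ratio for dYEATS2-IR relative to NTC IR-1 reversed to 0.55 for HeT-A{}6270, 1.09 for HeT-A{}6256, 0.89 for HeT-A{}6262, 0.76 for HeT-A{}6278, 0.073 for HeT-A{}6276, 0.25 for jockey{}981, 0.30 for jockey{}986, 0.29 for the HeT-A sum and 0.0011 for the jockey sum. HeT-A{}4795 had -0.45 (FDR 0.674). Between the controls under those names it reversed to -4.23 for HeT-A{}4617, -1.39 for G2{}1609, -1.33 for G2{}1640, -1.44 for Juan{}1190, 0.78 for Doc{}1041, 0.098 for jockey{}901, 0.10 for jockey{}986, 0.91 for jockey{}79, -1.18 for HeT-A{}6268 and -0.40 for Cr1a{}1621, and to -1.20 for the G2 sum, 0.024 for jockey, -0.68 for Juan and -0.72 for I. With the other control, G2{}1640 reversed to -1.33 in dYEATS2-IR and 1.30 in dENL/AF9-IR, the jockey sum to 0.024 in dYEATS2-IR and -0.94 in dENL/AF9-IR, and jockey{}981 and jockey{}986 to 0.17 and 0.0998 in dYEATS2-IR. These alternatives set other libraries against each other. HeT-A{}4795, HeT-A{}6255, HeT-A{}6256, HeT-A{}6262, HeT-A{}6270 and HeT-A{}6278 kept their calls for dYEATS2-IR relative to NTC IR-1 in each fit without a library, with the block, by DESeq2, with its size factors, with other filters and in the 6 libraries, and relative to NTC IR-2 HeT-A{}6255, HeT-A{}6270 and HeT-A{}6278 lost them. The cause of the other changes was not tested. Low counts limit the single insertions, of which 241 of 993 were tested.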
